A study of Mus musculus with 16 samples.

Results

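The myofibroblast and scar matrix genes were 10 mouse genes chosen by name from the 49315 in the table, Acta2, Tagln, Cnn1 and Myl9 of the contractile apparatus, Postn, Tnc, Fn1 and Sparc of the matrix, and Fap and Pdgfrb of the cell surface. Their level in TPM, a share of all transcripts corrected for gene length, was read in tail intervertebral discs of 16 mice, each library holding the 4 discs of 1 animal, from the Co3/4 level to the Co6/7 level. There were 3 intact wild-type mice, 4 injured wild-type mice, 4 intact mutants and 5 injured mutants. The mutants carried Adam8EQ, of which the labels give no more than the name, and the series title sets the Adam8 mutant against DBA, an inbred mouse strain. The labels do not say how the discs were injured, how long before collection, or the age and sex of the animals. Library names began with A8 in 2 injured and 2 intact mutants, with M in 3 injured and 2 intact mutants, and with D throughout the wild type, so the naming and the wild-type genotype cannot be told apart.

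A myofibroblast is a fibroblast that takes on contractile fibres of smooth muscle actin, pulls on the wound matrix and lays down new matrix, and transforming growth factor beta, stiffness and platelet-derived growth factor are known drivers of that state. The cells of a wound bed first rest on a provisional matrix rich in fibronectin, to which tenascin C and periostin are added before fibrillar collagen replaces it. A healthy disc has few vessels and holds chondrocyte-like and notochordal cells in a matrix of proteoglycan and collagen, and fibronectin is part of that matrix too.

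In short, injured mutant discs held more Tnc, Postn and Fn1 and less Sparc than intact mutant discs, and no contractile or surface gene passed the test. Of the 10 genes, 3 were higher and 1 lower at an adjusted p under 0.05 by limma, where 30.8% of all 24188 tested genes passed in either direction, 13.1% higher and 17.7% lower. In wild-type mice the Tnc and Postn differences were of similar size but none of the 10 passed the test, where 0.116% of all tested genes did. All 10 genes were among those tested, which had at least 1 TPM in at least 3 libraries.

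The 5′ flanks of 3 of these genes are shown. Postn and Tnc were the matrix genes with the largest injury differences. Myl9 was a contractile gene, and no contractile gene had a called difference. Among the windows at hand, only that of Myl9 held the CArG box named below. They come from RefSeq on GRCm38.p6, are written 5′ to 3′ on the strand of the gene, and end before the annotated start, for Myl9 before the more upstream GENCODE start. Postn lies at chr3:54360857-54361106 on the plus strand and Tnc at chr4:64047016-64047265 on the minus strand, and in both the capitals mark TATAAA. Myl9 lies at chr2:156775214-156775419 on the plus strand and its capitals mark a CArG box, the sequence that serum response factor binds.
Postn: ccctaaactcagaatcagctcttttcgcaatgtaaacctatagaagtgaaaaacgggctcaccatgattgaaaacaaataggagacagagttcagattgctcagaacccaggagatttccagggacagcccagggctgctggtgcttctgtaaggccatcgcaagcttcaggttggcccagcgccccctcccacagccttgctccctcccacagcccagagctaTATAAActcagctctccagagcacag
Tnc: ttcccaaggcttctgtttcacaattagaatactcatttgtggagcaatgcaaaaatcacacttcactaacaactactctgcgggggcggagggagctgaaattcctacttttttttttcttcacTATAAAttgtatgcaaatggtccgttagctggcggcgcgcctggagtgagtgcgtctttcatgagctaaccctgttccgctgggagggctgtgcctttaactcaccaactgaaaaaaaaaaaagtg
Myl9: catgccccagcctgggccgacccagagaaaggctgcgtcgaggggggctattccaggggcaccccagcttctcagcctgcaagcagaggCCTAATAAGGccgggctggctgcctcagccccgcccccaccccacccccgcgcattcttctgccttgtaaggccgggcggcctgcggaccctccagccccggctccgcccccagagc
Windows of 250 bases before the start were at hand for 6 of the 10 genes, and 4 motifs were searched on both strands, with no overlap among the matches. A CArG box was in 1.47% of all 32851 windows of this length, TATAAA in 12.4%, CATTCC, a TEAD core, in 12.6% and TGANTCA, an AP-1 site, in 6.75%. TATAAA stood 26 to 21 bases before the start in Postn and 126 to 121 before it in Tnc. The CArG box of Myl9 stood 161 to 152 bases before the RefSeq start. The Acta2 window held CATTCC on the opposite strand, 146 to 141 bases before the RefSeq start, which lies 217 bases inside the GENCODE gene, and none of the 6 windows held TGANTCA. For Sparc the RefSeq start lies 3103 bases inside the GENCODE gene. A match describes letters only.

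Depth and identity of the libraries were checked once for all genes. Low TPM values were whole multiples, within 0.05 of a read, of what 1 read would be worth for that gene's exon length in at least 94.2% of cases per library, which implies 10197069 to 24837805 reads per library. The 10 disc chondrocyte markers summed to 24731 to 33703 TPM in the 7 intact libraries, so the labelled tissue was there. In injured discs the same markers summed to 7462 to 24332 TPM in wild type and 6187 to 18256 TPM in mutants. Chad weighed heavily in this sum, with means of 17881 TPM in intact and 3055 TPM in injured mutants. Of the 10 markers, 1 was called higher and 2 lower in injured mutants, where 13.1% of all tested genes were higher and 17.7% lower. In wild type none was called, where 0.116% of all tested genes were. The 9 notochordal markers summed to 2588 to 4296 TPM in intact and 50.1 to 2496 TPM in injured mutants. In wild type these sums were 3929 to 5048 and 1124 to 3971 TPM. Of 7 tested, 4 were called lower and 0 higher in injured mutants, where 17.7% of all tested genes were lower. The part of this in the results was not tested. Injured wild-type mouse 3 stood apart. It held the highest value of all 16 libraries for 7 of the 10 genes, with 7462 TPM of disc chondrocyte markers and 262 TPM of endothelial markers. Injured mutant 2 had 6187 TPM of disc chondrocyte markers and 8316 TPM of macrophage markers. Injured wild-type mouse 1, at 22238 and 274 TPM of the same 2 lists, had the lowest macrophage marker sum of the 9 injured mice.

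Across all 16 libraries the 10 genes spanned a wide range of level per transcript length. Median TPM was 9244 for Fn1, 4237 for Sparc, 82.7 for Acta2, 55.4 for Pdgfrb, 9.90 for Tnc, 9.40 for Myl9, 6.22 for Fap, 4.06 for Tagln, 2.74 for Postn and 1.01 for Cnn1. The highest library exceeded the lowest by 1162 times for Postn and 263 times for Tnc, and by 2.37 times for Pdgfrb. The 10 genes together took a median of 1.08% of all TPM in intact wild type, 1.26% in intact mutants, 2.06% in injured wild type and 3.37% in injured mutants.

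**Figure D1:**
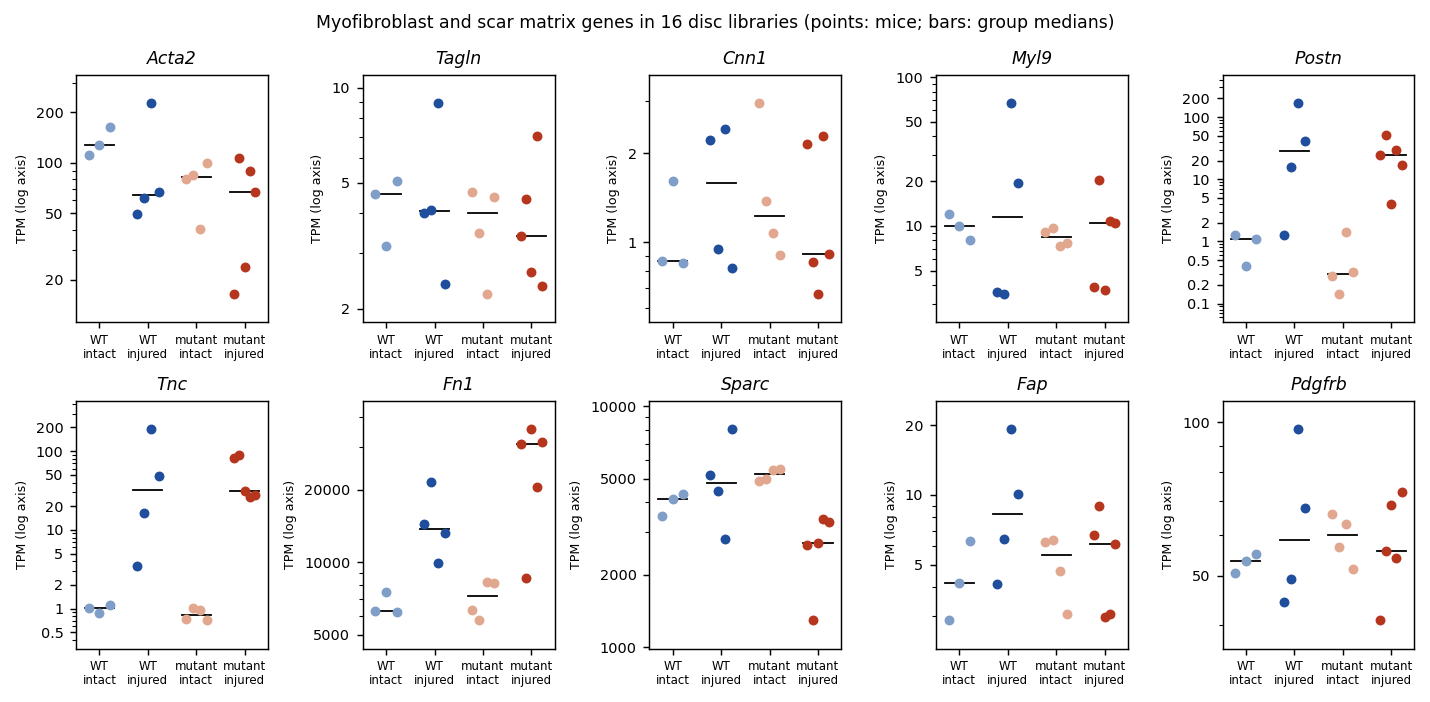
TPM on a log axis for each of the 10 genes in the 4 groups, with 1 point per mouse and a bar at the group median. Tnc points of all injured mice lie above the intact ones, as do those of Postn except for injured wild-type mouse 1, Fn1 points of injured mutants reach 35566, Sparc points of injured mutants lie under all intact mutants, and the contractile genes overlap between injured and intact mice.

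Tnc encodes tenascin C, a large hexameric glycoprotein of wound and tendon matrix, and lies on chromosome 4 from 63959785 to 64047015 on the minus strand in GRCm38. In intact mutants its level was 0.729, 1.01, 0.951 and 0.718 TPM. In injured mutants it was 81.9, 88.4, 31.5, 25.9 and 27.5 TPM. Every injured mutant was above every intact mutant, with mice 1 and 2 highest. The mean was 51.0 ± 31.3 TPM (SD, n = 5) in injured and 0.852 ± 0.151 TPM (SD, n = 4) in intact mutants, a ratio of 59.9. On the log2(TPM + 1) scale, which understates the change of low genes, Tnc rose by 4.61 ± 0.76 (standard error, adjusted p = 0.00107, limma). Within the mice named A8 the value was 5.53 (adjusted p = 0.0268, limma), and within those named M it was 4.00 (adjusted p = 0.0763, limma).

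Wild-type Tnc values had the same pattern with a wider spread. Intact wild-type mice had 1.005, 0.890 and 1.10 TPM. Injured wild-type mice had 3.46, 16.3, 189.02 and 48.2 TPM. The groups did not overlap, but mouse 1 was only a few times above the intact mice and mouse 3 was far above the rest. The difference was 3.87 ± 0.87 (standard error, adjusted p = 0.103, limma, 95% interval 2.02 to 5.72). Without injured mouse 3 it was 2.97 (adjusted p = 0.209, limma), and without injured mouse 1 it was 4.77 (adjusted p = 0.00828, limma). On the other strand Tnc overlaps 8030451A03Rik, which reached at most 4.06 TPM, and how the counting used strand is not given in the sources used here.

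Postn encodes periostin, a matricellular protein that links collagen, fibronectin and tenascin C, and lies on chromosome 3 from 54361109 to 54391037 on the plus strand. Its level in intact mutants was 0.279, 0.144, 1.43 and 0.320 TPM, the lowest resting on an implied 4 reads. Its level in injured mutants was 24.2, 51.7, 4.05, 29.1 and 17.0 TPM. All 5 injured mutants were above all 4 intact ones, and mouse 3 was the lowest of the injured. The means were 25.2 ± 17.6 TPM (SD, n = 5) and 0.543 ± 0.594 TPM (SD, n = 4), a ratio of 46.5. Postn rose by 3.80 ± 0.93 on the log2 scale (standard error, adjusted p = 0.00775, limma). Within mice named M the value was 2.97 (adjusted p = 0.222, limma) and within those named A8 4.91 (adjusted p = 0.0536, limma), so neither subset alone passed.

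Intact wild-type mice had 1.29, 0.397 and 1.11 TPM of Postn. Injured wild-type mice had 1.25, 15.8, 167.9 and 40.9 TPM. Mouse 1 lay among the intact mice and the groups therefore overlapped. The difference was 3.59 ± 1.06 (standard error, adjusted p = 0.150, limma). It was 2.62 without injured mouse 3 (adjusted p = 0.384, limma) and 4.70 without injured mouse 1 (adjusted p = 0.0223, limma). Among all 9 injured mice, Tnc was 0.890 to 7.80 times as high as Postn.

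Fn1 encodes fibronectin, the adhesive glycoprotein of provisional matrix, and lies on chromosome 1 from 71585520 to 71653200 on the minus strand. It was already abundant without injury, at 6309, 5754, 8245 and 8202 TPM in intact mutants. Injured mutants had 30834, 8596, 35566, 20569 and 31475 TPM. Mice 1, 3, 4 and 5 were far above every intact mutant, while mouse 2 was just above the highest of them. By level, Fn1 stood between rank 2 and rank 9 of all genes in injured mutants and between rank 7 and rank 15 in intact ones. The means were 25408 ± 10903 TPM (SD, n = 5) and 7127 ± 1286 TPM (SD, n = 4), a ratio of 3.56. Fn1 rose by 1.69 ± 0.48 on the log2 scale (standard error, adjusted p = 0.0166, limma), and by 2.04 without injured mutant 2 (adjusted p = 0.00316, limma). The call was lost when only the mutant groups were fitted (adjusted p = 0.0854, limma), without intact mutant 2 (adjusted p = 0.0562, limma), with no filter on low genes (adjusted p = 0.149, limma) and within each naming group, where the difference was 1.79 (M) and 1.43 (A8).

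Intact wild-type mice had 6295, 7532 and 6227 TPM of Fn1. Injured wild-type mice had 14359, 21438, 9892 and 13182 TPM. The groups did not overlap, with mouse 2 highest and mouse 3, the mouse with most Tnc and Postn, lowest of the injured. The difference was 1.09 ± 0.55 (standard error, adjusted p = 0.321, limma). On the other strand Fn1 overlaps Apol7d, which reached at most 11.3 TPM.

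Sparc encodes osteonectin, a small collagen-binding protein made by many matrix-producing cells, and lies on chromosome 11 from 55394500 to 55423183 on the minus strand. Intact mutants had 4879, 4975, 5460.4 and 5508 TPM. Injured mutants had 2668, 1299.6, 2701, 3412 and 3311 TPM. Every injured mutant was below every intact mutant, and mouse 2 was the lowest. The means were 2679 ± 843 TPM (SD, n = 5) and 5206 ± 325 TPM (SD, n = 4), a ratio of 0.515. Sparc fell by 1.03 on the log2 scale (standard error 0.33, adjusted p = 0.0270, limma). The call was lost without injured mutant 2 (fell by 0.79, adjusted p = 0.0514, limma), without any 1 of intact mutants 2, 3 or 4 (adjusted p 0.0548 to 0.0631, limma), with no filter (adjusted p = 0.0769, limma), with the endothelial marker score as covariate (adjusted p = 0.107, limma) and within each naming group, where it fell by 0.81 (M) and 1.40 (A8).

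Wild-type mice had 3497, 4141 and 4334 TPM of Sparc when intact. They had 5179, 4437, 2822 and 8013 TPM when injured, which placed 3 of 4 injured mice above the intact range and mouse 3 below it. The difference was 0.26 ± 0.37 (standard error, adjusted p = 0.737, limma). It was 0.52 without injured mouse 3 (adjusted p = 0.637, limma), 0.016 without injured mouse 4 (adjusted p = 0.993, limma) and 0.17 without intact mouse 1 (adjusted p = 0.885, limma). In bulk tissue fewer cells of a type and less RNA per cell cannot be told apart, for Sparc and for every other gene here.

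Fn1 and Sparc parted in injured mutants. This ratio was chosen after its values were seen and has no test. Within a library, the Fn1 level was 1.16 to 1.51 times that of Sparc in intact mutants and 6.03 to 13.2 times in injured mutants. In wild-type mice the ratio was 1.44 to 1.82 in intact and 1.65 to 4.83 in injured discs. Fn1 made up 84.0% to 92.6% of the summed TPM of the 10 genes in injured mutants, 61.5% to 82.3% in injured wild type, 52.8% to 59.6% in intact mutants and 57.6% to 63.4% in intact wild type.

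**Figure D2:**
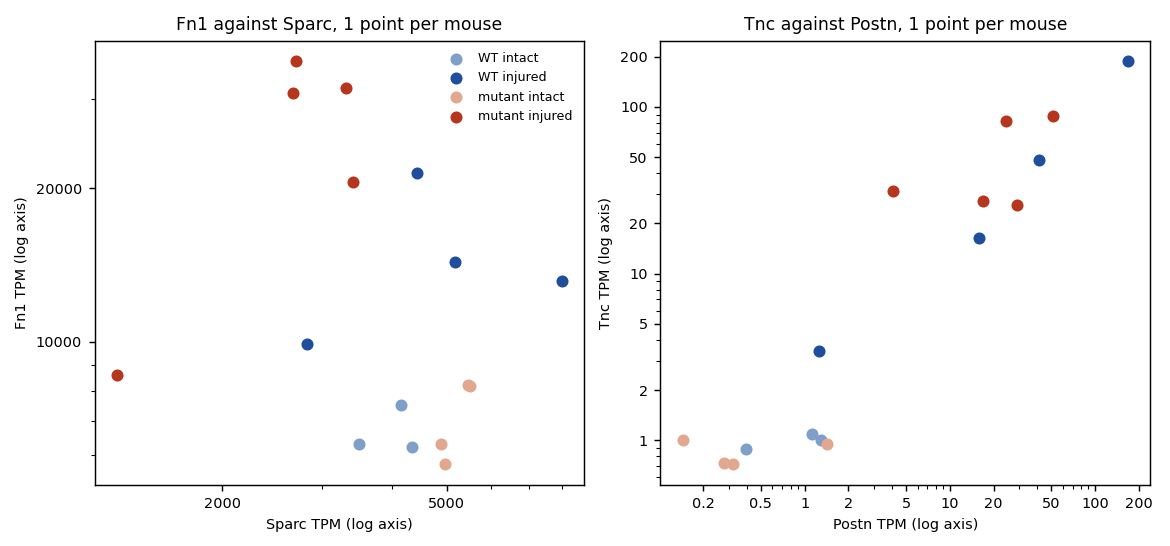
Left, Fn1 against Sparc, and right, Tnc against Postn, in TPM on log axes with 1 point per mouse coloured by group. The 5 injured mutants lie at the low Sparc end, 4 of them at high Fn1, and the Tnc and Postn points of injured mice run from near the intact cluster up to injured wild-type mouse 3 at 189.02 and 167.9 TPM.

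The 4 contractile genes did not pass the test in any of the comparisons, and their values overlapped between injured and intact mice of both genotypes. Acta2, the smooth muscle actin that defines the myofibroblast by staining, lies on chromosome 19 from 34241090 to 34255590 on the minus strand. Intact mutants had 80.4, 84.9, 40.2 and 99.7 TPM. Injured mutants had 16.6, 106.5, 24.1, 89.5 and 67.1 TPM, so mice 1 and 3 were below all intact mutants and mouse 2 was above them. The difference was -0.57 ± 0.54 (standard error, adjusted p = 0.451, limma), with a 95% interval of -1.72 to 0.58.

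Acta2 in intact wild-type mice was 111.1, 128.1 and 163.3 TPM. In injured wild-type mice it was 49.6, 62.0, 227.5 and 66.8 TPM, with 3 mice below the intact range and mouse 3 above it. The difference was -0.67 ± 0.61 (standard error, adjusted p = 0.582, limma). It was -1.15 without injured mouse 3 (adjusted p = 0.519, limma) and -0.43 without injured mouse 1 (adjusted p = 0.728, limma).

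Myl9 encodes a regulatory light chain of smooth muscle and non-muscle myosin and lies on chromosome 2 from 156775420 to 156781658 on the plus strand. Its level was 7.38 to 9.74 TPM in the 4 intact mutants. Injured mutants had 3.86, 20.5, 3.69, 10.8 and 10.5 TPM, with mice 1 and 3 below the intact range and the other three above it. The difference was -0.03 ± 0.67 (standard error, adjusted p = 0.977, limma), with a 95% interval of -1.46 to 1.40 that leaves room for a change of either sign. With the endothelial marker score as covariate Myl9 was called lower, at -1.15 (adjusted p = 0.0141, limma). Wild-type mice had 12.0, 10.01 and 8.01 TPM intact and 3.58, 3.51, 66.9 and 19.5 TPM injured. The same split was seen there, with mice 1 and 2 below and mice 3 and 4 above the intact range, and the difference was 0.26 ± 0.76 (standard error, adjusted p = 0.887, limma), or -0.54 without mouse 3 (adjusted p = 0.770, limma).

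Tagln encodes transgelin, an actin-binding protein of smooth muscle, and Cnn1 encodes calponin, which tempers actomyosin in the same cells, and both lie on chromosome 9. Tagln ranged from 2.23 to 8.94 TPM over all 16 libraries, on an implied 15 to 59 reads, and Cnn1 from 0.671 to 2.96 TPM on 6 to 34 reads. Low depth limits what these genes can show. The injury difference in mutants was 0.03 for Tagln (95% interval -0.65 to 0.71) and -0.12 for Cnn1 (95% interval -0.76 to 0.53). Tagln shares exon positions with Pcsk7 on the other strand, which reached at most 31.0 TPM, so Tagln values are uncertain if strand was not used in counting. Acta2 made up 63.8% to 92.1% of the summed contractile TPM in every library.

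The surface genes did not pass the test either. Fap encodes fibroblast activation protein, a membrane peptidase of activated fibroblasts, and lies on chromosome 2 from 62500943 to 62574075 on the minus strand. Intact mutants had 3.06 to 6.39 TPM and injured mutants 2.97 to 8.94 TPM, with a difference of 0.05 ± 0.38 (standard error, adjusted p = 0.936, limma). Wild-type mice had 2.88, 4.16 and 6.30 TPM intact. They had 4.13, 6.47, 19.2 and 10.1 TPM injured, with mice 3 and 4 highest. That difference was 0.87 ± 0.44 (standard error, adjusted p = 0.320, limma), and 0.51 without mouse 3.

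Pdgfrb encodes a platelet-derived growth factor receptor of pericytes and fibroblasts and lies on chromosome 18 from 61045150 to 61085061 on the plus strand. It was the steadiest of the 10 genes across mice. Intact mutants had 51.4 to 66.0 TPM and injured mutants 40.9 to 73.1 TPM. The difference was -0.04 ± 0.20 (standard error, adjusted p = 0.901, limma), and its 95% interval of -0.47 to 0.39 is narrower than that of any other of the 10 genes in this comparison. In wild type the values were 50.5 to 55.0 TPM intact and 44.4 to 96.8 TPM injured, the highest again mouse 3.

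**Figure D3:**
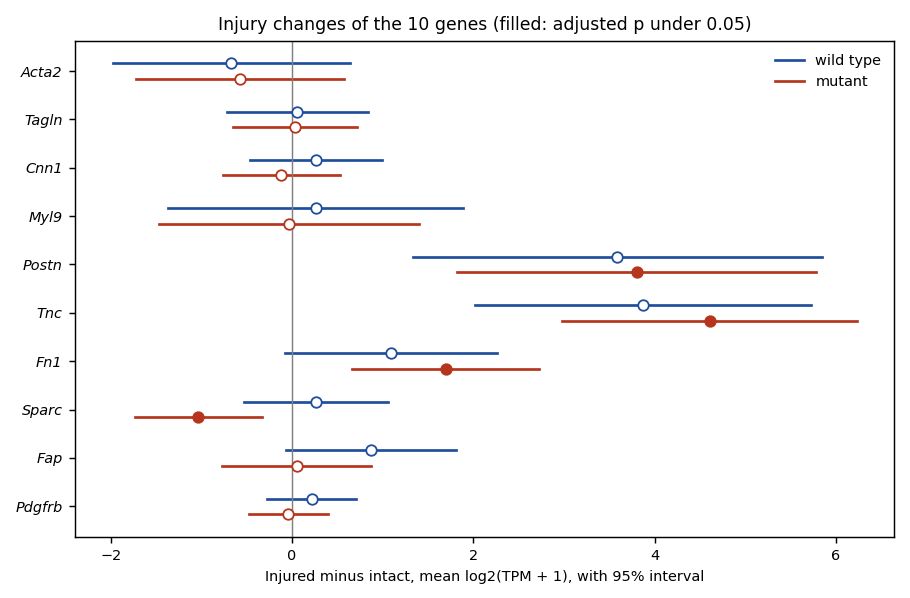
Difference of mean log2(TPM + 1) between injured and intact discs for each of the 10 genes, in wild-type (upper of each pair) and mutant mice, with the 95% interval of limma. Filled points had an adjusted p under 0.05, which held for Postn, Tnc, Fn1 and Sparc in mutants and for none in wild type, while the intervals of the 2 genotypes overlap for every gene.

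Whether the injury difference itself depended on genotype was tested as an interaction. None of the 10 genes passed, and 0.0% of all genes did by limma, although 1979 of 24188 had an unadjusted p under 0.05. Sparc was the 1 gene of the 10 with such a p. Its injury difference was lower in mutants by -1.30 ± 0.49 (standard error, unadjusted p = 0.0192, adjusted p = 0.534, limma). For Tnc the difference of differences was 0.74, with a 95% interval of -1.73 to 3.20. For Postn it was 0.21 (-2.79 to 3.21), and for Fn1 0.60 (-0.95 to 2.16). A call in mutants with none in wild type therefore does not show that the genotypes differed.

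Between genotypes, injured discs gave no call among the 10 genes by limma, where 0.918% of all tested genes passed. The values of the 2 injured groups overlapped for all 10 genes, and 4.77% of all tested genes had no overlap. Of all 24188 tested genes, 4912 had an unadjusted p under 0.05 there by limma. Among the 10, Sparc was the 1 gene with such a p, at -0.91 ± 0.33 in mutants against wild type (standard error, adjusted p = 0.143, limma). Without injured wild-type mouse 3 that value was -1.16 (adjusted p = 0.0385, limma). In intact discs none of the 10 passed or had an unadjusted p under 0.05, where 0.0165% of all tested genes passed and 915 of 24188 had such a p. Acta2 and Sparc were the 2 genes whose intact groups did not overlap, where 6.18% of all tested genes had none. Acta2 was lower in all 4 intact mutants (difference -0.86, adjusted p = 1, limma) and Sparc higher (0.39, adjusted p = 1, limma).

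For injury, Postn, Tnc, Fn1 and Sparc had no overlap in mutants, where 27.2% of all tested genes had none. In wild type Tnc and Fn1 had none, where the share was 15.6%. Both injury comparisons were read against their own intact mice, but the 2 genotype comparisons use the same libraries again.

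Genes around the 10 were counted in 8 pathway lists with 90 tested genes, of which 33 were higher and 16 lower in injured than intact mutants (adjusted p under 0.05, limma). Of all tested genes 13.1% were higher and 17.7% lower, so the number of lower genes was near the background. The lists were chosen with earlier results of these data known, so the shares here and below describe them and are no test. In wild type 1 of the 90 passed, Adam12, a metalloproteinase of activated fibroblasts, at 3.28 ± 0.50 (standard error, adjusted p = 0.0267, limma), a call lost in 11 of 29 alternatives. In the list of other contractile and cytoskeletal genes, 5 of 14 were higher and 2 lower in injured mutants, with a median difference of 0.33. Against the median of -0.08 over all tested genes, these moved both ways. Smtn, the smooth muscle protein smoothelin, rose by 1.89 and Actn1, an alpha-actinin of stress fibres, by 1.25. Mylk, the kinase that activates myosin light chain, fell by 1.65 and Csrp1, a LIM-domain protein of smooth muscle, by 1.15. Actg2, the enteric smooth muscle actin that resembles Acta2, averaged 0.587 TPM in injured mutants and did not pass (0.37, adjusted p = 0.486, limma). Acta1, the skeletal actin that also resembles it, did not pass either (0.08, adjusted p = 0.944, limma).

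Regulators of the contractile program were mixed. Of 11 genes, 2 were higher and 3 lower, with a median of 0.07. Here too 13.1% of all tested genes were higher and 17.7% lower, for this list and the next. Myocd, the smooth muscle coactivator of serum response factor, fell by 1.24, while Srf itself rose by 0.47 and Wwtr1, the coactivator TAZ, by 0.60. The Srf call was lost in 9 and the Wwtr1 call in 6 of 29 alternatives. In the transforming growth factor beta list, 4 of 13 genes were higher and 2 lower, with a median of 0.17. Ltbp2, a matrix protein of the latent-complex family, rose by 2.32 and Smad7, the feedback inhibitor of the pathway, by 1.67. The ligand gene Tgfb3 fell by 1.09.

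Of 5 genes for platelet-derived growth factors and the other receptor, 3 were higher and none lower in injured mutants, with a median of 0.83. Of all tested genes, 13.1% were higher and 17.7% lower. Pdgfb, a ligand that Pdgfrb binds, rose by 2.38, the receptor gene Pdgfra by 1.33 and the ligand gene Pdgfa by 0.83. Pdgfrb itself did not pass, as given above. Receptors for provisional matrix were split, with 3 of 10 higher and 3 lower and a median of 0.22, against the same shares of all tested genes. Cd44, the hyaluronan receptor, rose by 3.26, and Itga5, the alpha subunit of the fibronectin receptor, by 0.97. Itga11, the alpha subunit of a collagen receptor, fell by 1.74 and Itgb5, a vitronectin receptor subunit, by 0.60.

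Collagen and crosslinking genes of scar were higher in 7 of 14 and lower in none, with a median of 0.76, where 13.1% of all tested genes were higher and 17.7% lower. Col12a1, a fibril-associated collagen, rose by 2.60, Loxl1, a lysyl oxidase family member, by 2.32 and Col6a3, a microfibril collagen, by 1.79. The fibrillar collagen gene Col3a1 rose by 2.15, a call lost in 8 of 29 alternatives. Col1a1, the main collagen of mature scar, did not pass at 0.37 ± 0.50 (standard error, adjusted p = 0.609, limma). The matricellular list moved the other way, with 6 of 11 lower and 2 higher and a median of -1.01. Sparcl1, the closest relative of Sparc by name, fell by 2.24, Thbs1 by 1.84 and Thbs2 by 1.25, both thrombospondins, and Tnxb, the tenascin of loose connective tissue, by 1.75. Tnn, another tenascin, rose by 2.74, a call lost in 8 of 29 alternatives.

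Genes of activated fibroblasts were higher in 7 of 12 and lower in none, with a median of 1.65, against the same 13.1% and 17.7% of all tested genes. Il11, a cytokine of stromal cells, rose by 7.23, Plau, the urokinase gene, by 4.12, Adam12 by 4.08 and Runx1, a transcription factor, by 1.45. Between the injured groups, Il11 was higher in mutants by 3.52 (adjusted p = 0.0373, limma), and Mylk (-1.54, adjusted p = 0.0260, limma) and Thbs2 (-0.81, adjusted p = 0.0277, limma) were lower. These 3 of the 90 genes were all that passed there, and the calls were lost in 17, 8 and 10 of 29 alternatives.

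**Figure D4:**
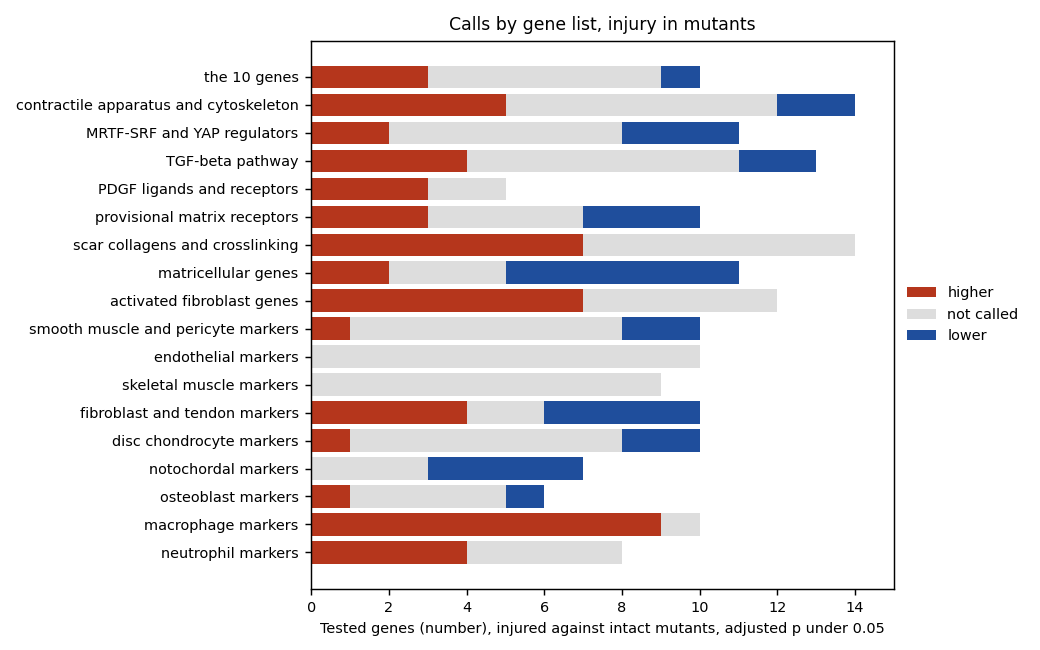
Number of tested genes higher, not called or lower in injured against intact mutants at an adjusted p under 0.05 by limma, for the 10 genes, 8 pathway lists and 9 marker lists. Scar collagens and activated fibroblast genes hold 7 higher and 0 lower each, matricellular genes 2 higher and 6 lower, and macrophage markers 9 higher.

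Markers of other cell types were compared between injured and intact discs in the same way. Of 10 macrophage markers, 9 were higher in injured mutants, where 13.1% of all tested genes were, and their summed level was 161 to 262 TPM in intact and 890.4 to 8316 TPM in injured mutants, against 175 to 208 and 274 to 4032 TPM in wild type. None of the 10 was at 0 in every library of a group. Of 8 tested neutrophil markers, 4 were higher, and the summed level of the list was 6.20 to 11.4 TPM in intact and 18.9 to 1013 TPM in injured mutants, with Ly6g and Mpo at 0 in all intact mutants and Elane in all injured ones. The 10 endothelial markers gave no call in mutants by limma, with 3 at an unadjusted p under 0.05, where 10158 of all 24188 tested genes had such a p. They summed to 10.9 to 20.8 TPM in intact and 17.8 to 92.0 TPM in injured mutants, and to 12.3 to 33.9 and 14.8 to 262 TPM in wild type. The part of these markers in the differences of Tnc, Postn, Fn1 and Sparc was not tested. A fit with the endothelial score as covariate cannot decide it. That score came from the same libraries, and its markers had a median injury difference of 1.14 in mutants. In that fit Tnc (3.49), Postn (2.34) and Fn1 (2.06) were called in mutants, as was Myl9 (-1.15), and Sparc (-0.79) was not.

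Smooth muscle and pericyte markers were higher in 1 and lower in 2 of 10 in injured mutants, near the 30.8% of all tested genes called in either direction. Myh11, the smooth muscle myosin heavy chain, fell by 1.90 and Ndufa4l2 by 1.21, while Des, the desmin gene, rose by 1.38 (a call lost in 10 of 29 alternatives). Myh11 was also lower in injured mutants than in injured wild type, at -1.66 (adjusted p = 0.0339, limma), a call lost in 17 of 29. The summed level of this list, 2601 to 3114 TPM in intact wild type and 902 to 2175 TPM in injured mutants, was mostly Ndufa4l2 and Cspg4, which disc tissue also expresses. Of 10 fibroblast and tendon markers, 4 were higher and 4 lower in injured mutants, where 13.1% of all tested genes were higher and 17.7% lower. Dcn, the decorin gene, rose by 1.52 and Tnmd, the tendon gene tenomodulin, fell by 2.03. The 10 skeletal muscle markers summed to 196 to 791 TPM in intact and 83.6 to 220 TPM in injured wild type. In mutants these sums were 123 to 153 and 25.4 to 620 TPM. None of the 9 tested was called for injury or genotype by limma. Between intact genotypes 4 of the 9 had an unadjusted p under 0.05, where 915 of all 24188 tested genes did. The part of either list in the results was not tested.

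Co-variation was read over the 9 injured libraries, where the genes varied most, as 85 relations, 45 between the 10 genes and 40 with 4 marker scores. Exact permutation p-values adjusted over the 85 passed for 7 by Pearson and 4 by Spearman, and 24 had an unadjusted Pearson p under 0.05. Among the 10 genes, Postn and Tnc varied together across mice (r = 0.87, rho = 0.80, adjusted exact p = 0.0462 and 0.146). Without the 2 mice farthest from the median of Postn r was 0.50, over a narrower range and 7 mice. Leaving out 1 mouse at a time gave r of 0.75 to 0.94, which passed in 1 of 9 cases. Acta2 and Myl9 gave r = 0.84 and rho = 0.78 (adjusted exact p = 0.0462 and 0.146), and Myl9 and Postn r = 0.84 and rho = 0.93 (adjusted exact p = 0.0462 and 0.0372). Without the 2 farthest mice these were 0.71 and 0.80. Fn1 went the other way from Acta2 (r = -0.75, rho = -0.67), with an adjusted exact p of 0.102 and 0.238.

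Myl9 followed the endothelial score closely in the injured libraries (r = 0.98, rho = 0.88, adjusted exact p = 0.0124 and 0.0523, r = 0.93 without the 2 farthest mice). The same score gave r = 0.87 with Postn (rho = 0.92, adjusted exact p = 0.0462 and 0.0372) and 0.88 with Fap (rho = 0.75, adjusted exact p = 0.0462 and 0.167), falling to 0.75 and 0.67. The macrophage score gave r = 0.86 with Tnc (rho = 0.80, adjusted exact p = 0.0462 and 0.146), and 0.64 without the farthest mice. With Myl9 the macrophage score gave r = 0.69 and rho = 0.90 (adjusted exact p = 0.146 and 0.0431). With Postn it gave r = 0.78 and rho = 0.92 (adjusted exact p = 0.0989 and 0.0372). Both relations passed by Spearman but not by Pearson. By Spearman the endothelial score passed with Postn but not with Myl9. The Spearman calls were not checked with 1 mouse left out. Leaving out 1 mouse moved the number of relations that passed by Pearson to between 0 and 8, with 0 left without injured wild-type mouse 3 or 4. Each genotype and each naming group held fewer than 6 injured mice, so no value within them is given.

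**Figure D5:**
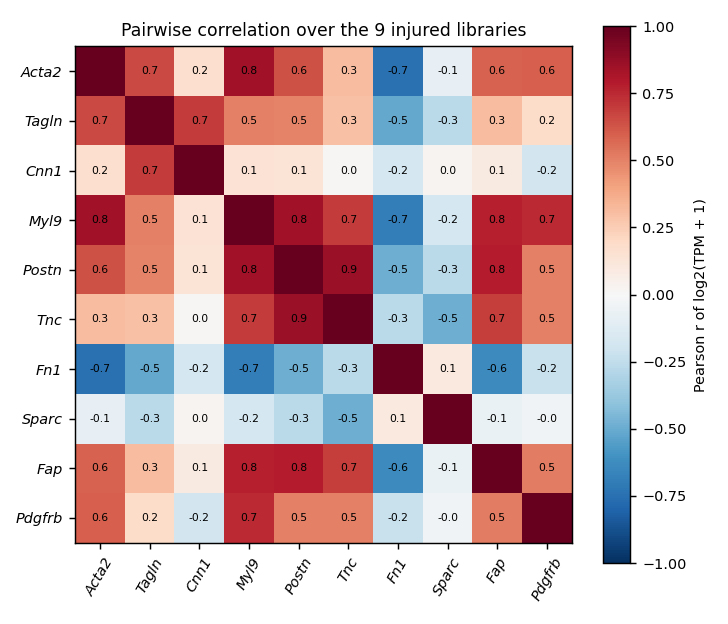
Pearson r of log2(TPM + 1) for each pair of the 10 genes over the 9 injured libraries, red above 0 and blue below. Acta2, Myl9, Postn, Tnc and Fap form a red block that reaches 0.87, Fn1 is blue against the contractile genes down to -0.75, and 29 of the 45 pairs are above 0.

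Genes with the most similar pattern were ranked among 11862 by Pearson r over the 16 libraries, as a description, since these libraries share groups and depth. Nearest to the mean of the contractile genes were Filip1l (0.87), Adgra2 (0.85), Abca9 (0.83), Rgs10 (0.82) and Mmp11 (0.81). Nearest to the mean of the matrix genes were Hdlbp (0.93), Tfg (0.93), Ssr2 (0.93), Uso1 (0.92) and Txndc5 (0.92). The level of Filip1l ran from 11.4 to 35.5 TPM and that of Hdlbp from 160 to 268 TPM.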

How the data were processed

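Bulk RNA sequencing had been done on tail intervertebral discs of 16 mice, 1 library per mouse. Per the labels' protocols, ribosomal RNA was depleted, while the molecule field reads polyA RNA. The authors deposited TPM (shares of transcripts, scaled by gene length and library) for 49315 genes, and each column sums to 1000000. The submitters' processing notes name bcl2fastq 2.20 and GRCm38. Which aligner, counter, annotation and strand setting were used is not given in the sources used here. Identifiers were joined to GENCODE M21, which holds 49056 of them.

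From these values log2(TPM + 1) was computed, the 24188 genes reaching 1 TPM in 3 or more libraries were kept, and limma 3.58.1 in R 4.3.3 fitted 1 mean per group over all 16 libraries, with moderated variances and a trend. The 5 contrasts were injury in each genotype, genotype in intact and in injured discs, and the difference of the injury effects. P-values were adjusted by Benjamini-Hochberg over all tested genes with a threshold of 0.05, and standard errors are the moderated ones. The script was tested on simulated data. Correlations over the 9 injured libraries used exact two-sided permutation tests (scipy 1.17.1). P-values measure the spread between mice.

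Groups came from the sample titles. All 10 genes are named whatever their result. From each list, the 4 genes with the smallest p for injury in mutants and a few relatives by name could be named. The genes and lists were chosen with earlier results of these data known. Alternatives were another pseudocount (0.1), other filters and scalings, sample weights, no trend, the compared groups alone, the mouse number as a block, each naming group, muscle and endothelial scores as covariates, and each mouse left out. Removing the genotype means before correlation was added after seeing the data. Same-numbered libraries are different mice, so numbers do not pair them.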

Additional observations from a re-analysis of the deposited data

Results flagged for a closer look

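Sparc in injured mutant 2 lay far from the other 4 injured mutants. Its level was 1299.6 TPM against 2668 TPM in the next lowest mouse, and on the log2 scale this gap was 0.745 of the range of the group, above the critical value of 0.71 for 5 samples. This was 1 of 30 groups looked at, where chance flags about 1 in 20. The same library had the lowest disc chondrocyte marker sum (6187 TPM) and the highest macrophage marker sum (8316 TPM) of the 16. Without it, Sparc was lower in injured than intact mutants by -0.79 with an adjusted p of 0.0514 (limma). The part of those markers in the Sparc value was not tested.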

How the results depend on the processing

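Depth limits Cnn1 and Tagln, with at most 34 and 59 implied reads a library, and 3 to 5 mice a group limit the rest. Calls among the 10 genes for injury in mutants numbered 4, and 2 with no filter, 0 within mice named M, 1 within mice named A8 and 2 to 4 when 1 mouse was left out, the lowest without intact mutant 2. The endothelial score left 4, with Myl9 in place of Sparc. Injury in wild type gave 0, 1 with sample weights (Tnc) and 0 to 2 when 1 mouse was left out, the highest without injured mouse 1. Genotype in injured discs gave 0, 1 with the endothelial score (Sparc) and 0 to 1 when 1 mouse was left out. The 7 correlations that passed became 1 with a pseudocount of 0.1, 13 with genotype means removed (chosen after seeing the data) and 0 to 8 with 1 mouse left out. The fit with the replicate block (mouse number) called 3 of the 10 in mutants, losing Fn1 (1.58, adjusted p = 0.0738, limma), and 6191 genes in all against 7438. Same-numbered libraries had deviations correlated at -0.217 to 0.078, and not every mouse correlated best with its own number. Of all genes, 7438 were called for injury in mutants, 725 within mice named M, 3583 within mice named A8 and 4552 with the endothelial score. For injury in wild type 28 genes were called, 452 without injured mouse 1, 2 without intact mouse 1 and 2 to 77 over the other settings. Between injured groups 222 were called (46 higher, 176 lower), 160 with median-of-ratios scaling (76 higher, 84 lower), 7 to 2253 when 1 mouse was left out, from injured wild-type mouse 2 to injured wild-type mouse 3, and 2 within mice named A8 to 2331 with the endothelial score over the other settings. Genotype in intact discs gave 4 genes, 1 to 7 when 1 mouse was left out and 2 to 8 over the other settings. The difference of the injury effects gave 0, 4 with sample weights and 15 without injured wild-type mouse 3. The causes were not tested.

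The sign changed only where a value was not called. For injury in mutants, values of the other sign came with median-of-ratios scaling (Myl9 0.046, Pdgfrb 0.048), with quantile normalization (Myl9 0.086), with sample weights (Fap -0.013, Tagln -0.073, Pdgfrb 0.046), with the replicate block (Fap -0.0044, Acta1 -0.22), in mice named M (Myl9 0.0071, Cnn1 0.14, Pdgfrb 0.18), in mice named A8 (Tagln -0.047, Acta1 -1.80), with the endothelial score (Fap -0.42, Tagln -0.16, Actg2 -0.088, Col1a1 -0.24). For injury in wild type, values of the other sign came with quantile normalization (Tagln -0.0041), with sample weights (Myl9 -0.21, Tagln -0.088), with the endothelial score (Myl9 -1.07, Tagln -0.17, Pdgfrb -0.076). For genotype in intact discs, values of the other sign came in mice named M (Fap -0.13, Cnn1 -0.064), in mice named A8 (Fn1 -0.14), with the skeletal muscle score (Fap -0.31), with the endothelial score (Fn1 -0.064, Myl9 0.23, Postn 0.21, Tnc 0.33). For genotype in injured discs, values of the other sign came with median-of-ratios scaling (Pdgfrb 0.0082), with quantile normalization (Cnn1 0.076), with sample weights (Postn 0.0081, Pdgfrb 0.063), in mice named M (Pdgfrb 0.072), in mice named A8 (Postn 0.68), with the endothelial score (Myl9 0.15, Postn 0.69, Pdgfrb 0.041). For the difference of the injury effects, values of the other sign came with median-of-ratios scaling (Tagln 0.051), with quantile normalization (Tagln 0.13), with sample weights (Myl9 0.10, Tagln 0.016), with the replicate block (Tagln 0.12), in mice named M (Postn -0.62, Tagln 0.070), in mice named A8 (Acta2 -0.27), with the endothelial score (Tagln 0.011). For injury in mutants, leaving out 1 mouse at a time gave Fap -0.13 to 0.21, Myl9 -0.34 to 0.21, Cnn1 -0.25 to 0.11, Tagln -0.16 to 0.15, Pdgfrb -0.13 to 0.079, Acta1 -0.45 to 0.70. For injury in wild type, leaving out 1 mouse at a time gave Myl9 -0.54 to 0.77, Tagln -0.24 to 0.28. For genotype in intact discs, leaving out 1 mouse at a time gave Fap -0.047 to 0.41. For genotype in injured discs, leaving out 1 mouse at a time gave Myl9 -1.01 to 0.30, Postn -1.26 to 0.82, Tnc -0.28 to 1.53, Cnn1 -0.29 to 0.018, Tagln -0.43 to 0.091, Pdgfrb -0.26 to 0.11. For the difference of the injury effects, leaving out 1 mouse at a time gave Myl9 -0.80 to 0.50, Postn -0.90 to 1.18, Tnc -0.17 to 1.64, Tagln -0.25 to 0.27, Acta2 -0.18 to 0.58. The filter on a mean of 5 TPM left Cnn1, Tagln, Actg2 and Myocd untested.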
